A study of Mus musculus with 12 samples.

Results

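The 10 genes described here encode the secreted cytokines of the interleukin-1 group (Il1a, Il1b and the receptor antagonist Il1rn), the interleukin-6 family (Il6, Il11, Lif and Osm) and the colony-stimulating factors (Csf1, Csf2 and Csf3). They were taken from a list of cytokine-release genes and were found by symbol, all 10 of them, among the 52636 genes of the count table. These genes and the lists used below were chosen with earlier results of these data known. Their counts beside all genes are therefore descriptions. RNA was sequenced in bulk from liver and tumor of female FVB/NJ mice that carried a piece of an MMTV-HER2-transgenic Founder 5 (Fo5) mammary tumor in the mammary fat pad, a model in which the mammary tumor virus promoter drives human HER2. Mice received 1 intravenous dose of vehicle buffer, or of 5 mg/kg of anti-HER2(4D5-2C11)/CD3, a T cell-dependent bispecific antibody (TDB) that binds HER2 with one arm and CD3 on T cells with the other, and tissues were taken 24 h later. The 4 groups of 3 libraries were liver with vehicle, liver with TDB, tumor with vehicle and tumor with TDB, from mice whose tumor volumes averaged 350 to 500 mm3 at the start of treatment. All mice carried the tumor, so none of the livers came from a tumor-free animal. The series names 3 mice per treatment, and no label ties a liver library to a tumor library of the same mouse.

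Interleukin-1 alpha and interleukin-1 beta bind the same receptor and start inflammatory signalling through MyD88, whereas the antagonist encoded by Il1rn occupies that receptor without signalling. Cytokines of the interleukin-6 family share the signalling subunit gp130 (Il6st), pair it with a receptor of their own and act through JAK kinases and STAT3, which in liver drives acute-phase protein genes. The colony-stimulating factors direct the survival, growth and differentiation of macrophages (Csf1), of granulocytes and macrophages (Csf2) and of neutrophils (Csf3).

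Sequence upstream of the transcription start is shown for 5 genes whose levels carry the comparisons below, to put their promoter letters beside the values. RefSeq windows on GRCm38.p6 were at hand for 8 of the 10 genes, all except Osm and Csf3. Each line gives the 250 bases before an annotated start, 5′ to 3′ on the strand of the gene, with matches to the searched motifs in capitals.
Il6, chr5:30012864-30013113, plus strand: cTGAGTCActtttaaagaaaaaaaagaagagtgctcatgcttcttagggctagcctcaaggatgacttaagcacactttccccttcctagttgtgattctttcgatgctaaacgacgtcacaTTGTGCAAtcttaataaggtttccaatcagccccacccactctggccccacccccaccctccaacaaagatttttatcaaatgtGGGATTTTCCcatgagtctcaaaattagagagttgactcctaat
Il1b, chr2:129371140-129371389, minus strand: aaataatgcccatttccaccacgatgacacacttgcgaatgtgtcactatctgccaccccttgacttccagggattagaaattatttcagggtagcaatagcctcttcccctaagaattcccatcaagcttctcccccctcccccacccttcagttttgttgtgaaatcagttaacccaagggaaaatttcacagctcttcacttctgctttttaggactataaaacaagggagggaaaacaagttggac
Il1rn, chr2:24336610-24336859, plus strand: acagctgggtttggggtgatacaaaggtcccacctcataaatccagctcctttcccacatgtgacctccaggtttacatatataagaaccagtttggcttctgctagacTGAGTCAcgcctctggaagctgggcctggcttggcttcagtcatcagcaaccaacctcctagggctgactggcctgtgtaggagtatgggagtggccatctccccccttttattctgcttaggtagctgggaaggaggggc
Lif, chr11:4257318-4257567, plus strand: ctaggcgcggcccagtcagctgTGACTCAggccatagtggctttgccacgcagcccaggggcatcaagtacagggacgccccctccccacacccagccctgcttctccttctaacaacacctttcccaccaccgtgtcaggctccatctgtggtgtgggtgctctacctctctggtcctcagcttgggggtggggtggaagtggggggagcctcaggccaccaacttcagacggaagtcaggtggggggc
Csf1, chr3:107760470-107760719, minus strand: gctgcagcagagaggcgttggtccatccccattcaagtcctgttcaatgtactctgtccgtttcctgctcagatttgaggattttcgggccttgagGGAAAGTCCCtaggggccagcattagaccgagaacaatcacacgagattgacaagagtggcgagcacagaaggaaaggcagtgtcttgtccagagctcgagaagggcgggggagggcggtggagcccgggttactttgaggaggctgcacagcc

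Windows reaching 50 bases past the start were searched on both strands for the kappaB motif of NF-kappaB, for AP-1 (TGANTCA), CRE (TGACGTCA), C/EBP (TTGCNNAA), GAS (TTCNNNGAA) and for the interferon-stimulated response element (ISRE); the matches found do not overlap each other. The Il6 window held 3 of these motifs, with AP-1 starting 249 bases, C/EBP 128 bases and kappaB 44 bases before the start. The Csf1 window held kappaB, 154 bases before the start. AP-1 matches stood 141 bases before the start in the Il1rn window shown, 228 bases before it in Lif, 12 bases before it in Il1a and 98 bases before it in 1 of the 2 Il11 windows. The Csf2 window held C/EBP, 145 bases before the start. The letters searched were not in the Il1b window, nor in the other 2 Il1rn windows. Among all 32851 RefSeq windows of this length, 4.51% held kappaB, 7.81% AP-1, 10.8% C/EBP, 1.79% CRE, 8.3% GAS and 3.44% ISRE. A match of letters is a description of the sequence and says nothing about factor binding in these tissues.

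In GRCm38 with GENCODE M21, Il1a (chr2:129299610-129309972) and Il1b (chr2:129364570-129371139) lie next to each other on the minus strand, 54597 bases apart with no protein-coding gene between them. Il1rn (chr2:24336853-24351494, plus strand) is on the same chromosome, 105013075 bases away. Osm (chr11:4236420-4241026) and Lif (chr11:4257557-4272514) are also neighbours, 16530 bases apart on the plus strand. Csf2 (chr11:54247271-54249667, minus strand) and Csf3 (chr11:98701263-98703629, plus strand) lie farther along that chromosome. Il6 is at chr5:30013114-30019981 (plus strand), Il11 at chr7:4772373-4782859 (minus strand) and Csf1 at chr3:107741048-107760469 (minus strand). An antisense gene overlaps Il1b and held 16 counts over the 12 libraries, and another overlaps Il1a and held 90 counts. Whether the counting used strand is not stated in the sources used here, and these reads cannot be told apart from those of Il1b and Il1a.

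The libraries held 18460159 to 29396324 counts. Levels are CPM (counts scaled to library size) after TMM scaling, a method that assumes most genes are alike between libraries, and fold changes are edgeR estimates with their standard errors (SE). The 5 marker genes of hepatocytes summed to 146113 to 268562 CPM in liver and to at most 24.4 CPM in tumor, and 7 mammary epithelial markers summed to 13948 to 16464 CPM in tumor and 321 to 831 CPM in liver. The liver TDB library 3 stood apart from the other liver libraries on the first principal component (97.1). Liver vehicle library 2 lay at the other end (-61.8). The remaining TDB livers (-28.8 and 4.39) lay within the range of the vehicle livers (-61.8 to 6.14), so this component did not separate the treatments. The common coefficient of variation between libraries of a group was 32.3% in the liver comparison and 13.0% in the tumor comparison. Within a tissue, P-values measure the spread between the 3 mice of each treatment. The tests between tissues and of the interaction took all libraries as independent, so mice shared by both tissues are not accounted for.

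Within the tumor, 7 of the 8 genes that passed the count filter were higher 24 h after TDB (Il1a, Il1b, Il1rn, Il6, Lif, Osm and Csf1). Il11 was not called, and Csf2 and Csf3 had too few counts to be tested. Of all 15454 genes tested in tumor, 15.8% were called higher and 13.1% lower. That split moved with the scaling, from 54.7% of called genes being higher under TMM to 41.0% under upper quartile scaling and 31.7% on library totals, whereas the 7 cytokine genes were called higher under each of these scalings. Il6 reached the level of the count filter in 3 TDB tumors and 1 vehicle tumor, and Osm in 3 and 2, so both entered the test through the group where they were high, and Il11 reached it in 2 TDB tumors and 1 vehicle tumor. In liver, 0 of the 4 genes that passed the filter (Il1a, Il1b, Il1rn and Csf1) were called by edgeR's quasi-likelihood test, beside 0.513% of 13657 genes called higher and 0.022% lower. One of these 4 had an unadjusted p under 0.05, as had 1105 of the 13657 genes. DESeq2 and limma-voom also called 0 of the 4. Their median log2 fold change in liver was 0.67, beside 0.04 over all genes. In bulk tissue, more cells of a type and more RNA per cell cannot be told apart, and this holds for each difference below.

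**Figure D1:**
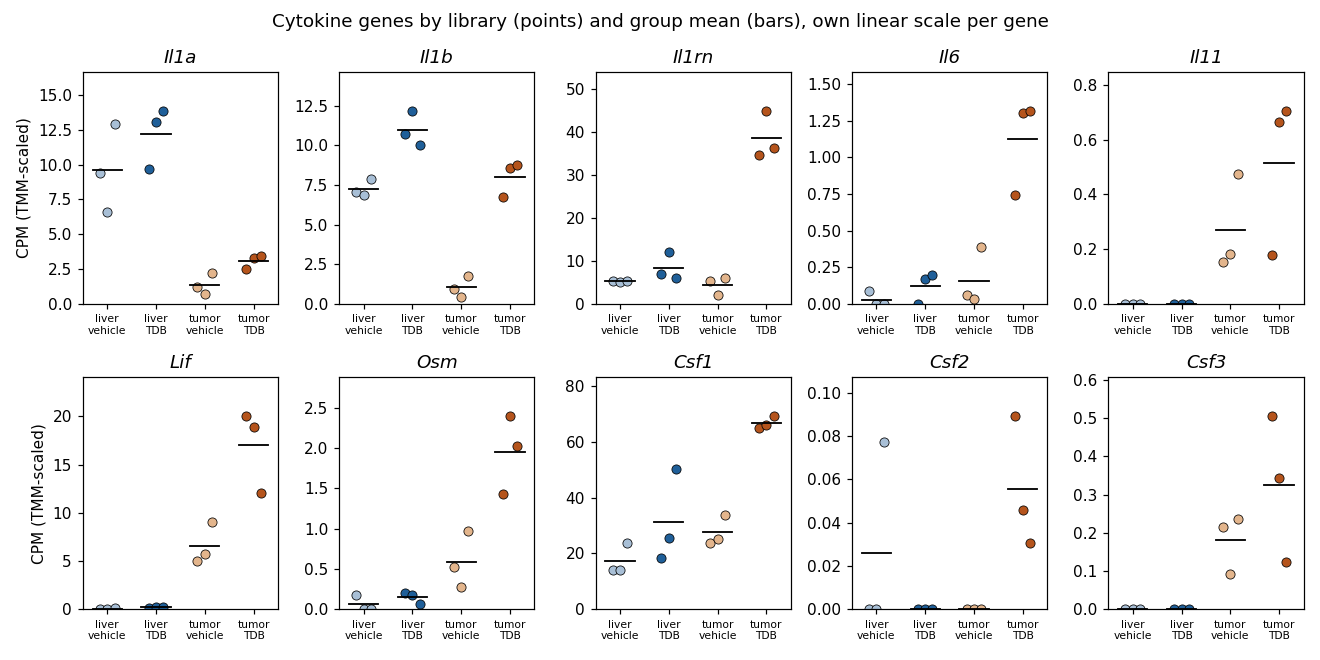
Level of each of the 10 cytokine genes in CPM (linear axis from 0, scaled separately for each gene) in the 12 libraries; points are libraries and bars are means of 3. In tumor, the TDB libraries of Il1b lie between 6.73 and 8.78 CPM and those of Il1rn between 34.7 and 45.0 CPM, all above the vehicle libraries, while Il11 and Csf3 are at 0 in the 6 liver libraries.

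Il1b, the interleukin-1 form that caspase-1 cleaves before release, was at 0.922, 0.455 and 1.78 CPM in the 3 vehicle tumors and at 6.73, 8.54 and 8.78 CPM in the 3 TDB tumors. The groups do not overlap, as was so for 23% of tumor genes in the higher and 23.1% in the lower direction, and the lowest TDB tumor stood well above the highest vehicle tumor. The log2 fold change was 3.01 (SE 0.40, edgeR adjusted p = 0.00158). In liver, Il1b was at 7.02, 6.87 and 7.87 CPM with vehicle and at 10.7, 12.2 and 10.0 CPM with TDB. These liver groups do not overlap either, as was so for 9.11% of liver genes in the higher and 5.46% in the lower direction. The liver difference was not called (log2 fold change 0.64, SE 0.24, adjusted p = 0.489).

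Il1rn encodes the antagonist of the interleukin-1 receptor. Of the cytokine genes chosen here, Il1rn was among those with the greatest fold changes in tumor, together with Il1b and Il6, which lie within its error. Its level was 5.34, 1.97 and 5.92 CPM in vehicle tumors and 34.7, 45.0 and 36.3 CPM in TDB tumors. The 3 TDB tumors lay far above the vehicle tumors, among which library 2 was lowest. TDB exceeded vehicle by 3.21 log2 units (SE 0.38, adjusted p = 0.00202). Liver levels were 5.38, 5.16 and 5.40 CPM with vehicle and 7.05, 12.1 and 6.03 CPM with TDB, with library 2 highest. The liver groups do not overlap, and the difference was not called (log2 fold change 0.70, SE 0.32, adjusted p = 0.667).

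Il1a encodes the interleukin-1 form that is active without cleavage and is released by damaged cells. In tumor it was at 1.23, 0.698 and 2.19 CPM with vehicle and at 2.53, 3.27 and 3.41 CPM with TDB, so that the highest vehicle tumor came close to the lowest TDB tumor. The log2 fold change was 1.24 (SE 0.36, adjusted p = 0.0342). The call was lost when tumor vehicle library 1 or any 1 of the 3 TDB tumors was left out, with log2 fold changes of 1.16 to 1.36, and over all leave-one-out fits the adjusted p reached 0.120. In liver Il1a was at 9.37, 6.62 and 12.9 CPM with vehicle and at 9.66, 13.0 and 13.9 CPM with TDB, groups that overlap (log2 fold change 0.39, SE 0.32, adjusted p = 0.816).

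The interleukin-1 genes stood in different proportions in the 2 tissues. Per exonic length and library (TPM), Il1rn was at 0.115, 0.134 and 0.0916 per unit of Il1a plus Il1b in vehicle livers and at 0.121, 0.168 and 0.0886 in TDB livers. In tumor the same ratio was 0.873, 0.602 and 0.524 with vehicle and 1.30, 1.33 and 1.04 with TDB. Antagonist transcripts were therefore several times more abundant relative to the agonists in each tumor library than in each liver library, a ratio that does not depend on the scaling between libraries. The mean tumor ratio was 0.666 ± 0.183 (SD, n = 3) with vehicle and 1.22 ± 0.161 (SD, n = 3) with TDB, and the groups do not overlap. The ratio of Il1b to Il1a was 0.776, 0.675 and 0.839 in vehicle tumors and 2.75, 2.70 and 2.67 in TDB tumors, so Il1b was the lower of the 2 before and the higher after TDB. In liver that ratio was 0.632 to 1.08 with vehicle and 0.747 to 1.15 with TDB, and these overlap. Exact two-sided permutation tests of the 4 differences gave p = 0.1 for both ratios in tumor, the smallest p that 3 against 3 libraries allow, and p = 0.7 and p = 0.5 in liver (adjusted over the 4 tests, 0.2 in tumor and 0.7 and 0.667 in liver).

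**Figure D2:**
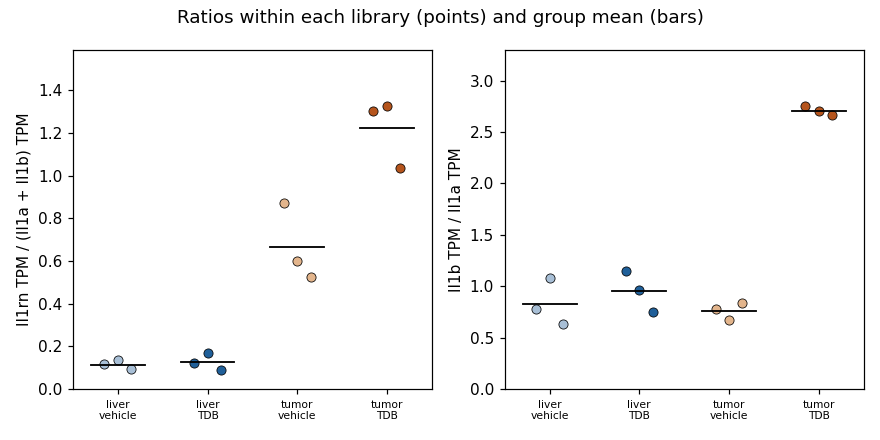
Ratios of TPM within each library: Il1rn over the sum of Il1a and Il1b (left) and Il1b over Il1a (right), both axes linear from 0; points are libraries, bars are means of 3. The antagonist ratio is at most 0.168 in the liver libraries and at least 0.524 in the tumor libraries, and the Il1b to Il1a ratio of TDB tumors is 2.67 to 2.75.

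Among the interleukin-6 family, Il6 itself was scarce. It held 2, 1 and 13 counts in the vehicle tumors (0.0614, 0.0303 and 0.385 CPM) and 25, 57 and 43 counts in the TDB tumors (0.744, 1.30 and 1.32 CPM). All 3 TDB tumors were above the vehicle tumors, of which library 3 was by far the highest. On the log2 scale Il6 differed by 2.87 (SE 0.64, adjusted p = 0.0118), and without tumor vehicle library 3 it was 4.60. Without tumor vehicle library 1 it was 2.50 and was no longer called (adjusted p = 0.0519). The 6 liver libraries together held 1 count with vehicle and 6 counts with TDB, a ratio of 4.50 with a 95% interval of 0.546 to 207 from counting error alone, so a difference was not detectable at this depth.

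Lif (leukemia inhibitory factor) was the most abundant member of the family in tumor. Vehicle tumors were at 5.01, 5.71 and 9.0 CPM and TDB tumors at 20.1, 19.0 and 12.1 CPM. The groups do not overlap, and library 3 was the highest of the vehicle tumors and the lowest of the TDB tumors. On the log2 scale the difference was 1.46 (SE 0.28, adjusted p = 0.00865). In liver Lif held 1 count over the vehicle libraries and 8 counts over the TDB libraries, a ratio of 6.01 (counting interval 0.805 to 266).

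Osm (oncostatin M), a product of activated T cells and myeloid cells, was at 0.522, 0.273 and 0.977 CPM in vehicle tumors and at 1.43, 2.40 and 2.03 CPM in TDB tumors, with no overlap. The log2 fold change was 1.80 (SE 0.41, adjusted p = 0.0109), and the call was lost without tumor vehicle library 1 (1.73, adjusted p = 0.0549). Liver held 2 counts with vehicle and 7 with TDB. Il11, a gp130 cytokine known from fibroblasts and epithelium, was at 0.154, 0.182 and 0.474 CPM in vehicle tumors and at 0.179, 0.664 and 0.706 CPM in TDB tumors. These groups overlap, 1 TDB tumor being as low as the vehicle tumors, and the difference was not called (log2 fold change 1.02, SE 0.59, adjusted p = 0.238). The 6 liver libraries held 0 counts of Il11, which allows at most 0.083 CPM with vehicle and 0.0623 CPM with TDB (3 counts over the group).

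Csf1, the macrophage growth factor, had the smallest SE of the 8 tested genes. It was at 23.8, 25.0 and 33.8 CPM in vehicle tumors and at 64.9, 66.0 and 69.4 CPM in TDB tumors, a spread of only a few CPM within the TDB group. The log2 fold change was 1.36 (SE 0.13, adjusted p = 0.000135), and it stayed between 1.27 and 1.54, called each time, when any 1 library was left out. In liver Csf1 was at 14.0, 14.0 and 23.8 CPM with vehicle and at 18.5, 25.5 and 50.1 CPM with TDB, groups that overlap. The log2 fold change in liver was 0.91 (SE 0.42, adjusted p = 0.671). It was 0.39 without liver TDB library 3, the library that stood apart, and remained uncalled.

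The other 2 colony-stimulating factors were near the limit of detection. Csf2, which encodes GM-CSF, held 0 counts in the vehicle tumors and 3, 2 and 1 counts in the TDB tumors, at least 1.81-fold higher against a floor of 3 counts over the vehicle group. This bound, like the others of its kind here, takes the higher count as exact, and the lower 95% counting limit of the ratio was 1.06. A single count of Csf2 was found over the 6 liver libraries, in a vehicle liver. Csf3, which encodes G-CSF, held 7, 3 and 8 counts in vehicle tumors and 17, 15 and 4 counts in TDB tumors. These groups overlap, and the pooled ratio was 1.81 (counting interval 1.00 to 3.38), which leaves out the spread between mice. Without the count filter, edgeR gave Csf3 an adjusted p of 0.331 and Csf2 one of 0.131. No count of Csf3 was found in liver.

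**Figure D3:**
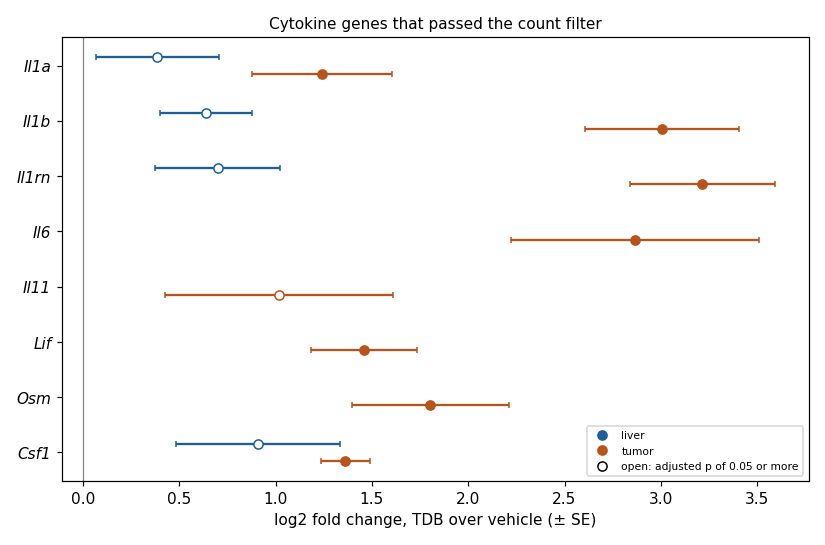
Log2 fold change of TDB over vehicle (± SE, linear axis) for the cytokine genes that passed the count filter, in liver (blue, 4 genes) and tumor (orange, 8 genes); filled points have an adjusted p under 0.05. Tumor estimates of Il1rn (3.21), Il1b (3.01) and Il6 (2.87) lie farthest from 0, and the 4 liver points are open.

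The response differed between the tissues for 2 genes. The tumor effect exceeded the liver effect by 2.33 on the log2 scale for Il1b (SE 0.47, adjusted p = 0.0213) and by 2.47 for Il1rn (SE 0.51, adjusted p = 0.0240), in an edgeR interaction test over the 12 libraries in which 1.83% of 16557 genes were called in this direction and 0.658% in the other. Of the called genes 73.5% had the greater tumor effect, a share of 58.4% on library totals. Each of these 2 calls rests on single libraries. Il1b was not called without liver vehicle library 1 or 3, tumor vehicle library 1 or tumor TDB library 2 or 3, and Il1rn was not called without any 1 of the 3 vehicle livers or without tumor TDB library 1 or 2. The estimates then were 2.24 to 2.34 for Il1b and 2.34 to 2.54 for Il1rn, and over all 23 alternatives the adjusted p ranged from 3.21e-05 to 0.0720 for Il1b and from 0.000177 to 0.0745 for Il1rn. Il1a (0.82, SE 0.50, adjusted p = 0.606) and Csf1 (0.42, SE 0.47, adjusted p = 0.846) did not pass the test of the difference. With 0 to 8 counts in each liver group, the estimates for Lif (-1.01, SE 1.12, adjusted p = 0.844), Osm (0.41, SE 1.76) and Il6 (0.79, SE 2.91) were imprecise and not called. Il11, at 0 in liver, gave no usable estimate.

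The tissues also held different sets of these cytokines before treatment. Among vehicle libraries, Lif was far higher in tumor (655 counts over 3 libraries) than in liver (1 count), a ratio of 238 (counting interval 42.6 to 9428). Il1a was lower in tumor than in liver by a log2 difference of -2.82 (SE 0.42, adjusted p = 0.000227) and Il1b by -2.79 (SE 0.42, adjusted p = 0.000235). Csf1 was higher in tumor (0.66, SE 0.25, adjusted p = 0.0341), a call lost without tumor vehicle library 2 or 3 or without liver vehicle library 1 or 2 (0.50 to 0.73). Il1rn stood at -0.28 (SE 0.37, adjusted p = 0.510) under TMM and at 1.06 on library totals, so its direction between tissues is not settled. Il1a and Il1b were lower in each vehicle tumor than in each vehicle liver, as 39.1% of all genes were, and Lif was higher in each, as 43.3% were. For all genes, 40.8% were called higher and 37.8% lower in vehicle tumor than in vehicle liver. On library totals 79.1% of called genes were higher in tumor, since that scaling sets the median gene 1.34 log2 units higher than TMM does. Il11 was at least 3.27-fold and Csf3 at least 2.18-fold higher in vehicle tumor than in vehicle liver, against a floor of 3 counts over the liver group.

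After TDB, 5 of the 7 genes tested were higher in tumor than in liver and 1 was lower, beside 34.1% and 33.5% of all genes. Il6, Lif and Osm reached the level that the count filter asks for in the 3 tumor libraries and in 0 liver libraries, so these 3 could only be tested because they were high in tumor, and the count of 5 supports nothing on its own. Each of these 5 was higher in every TDB tumor than in every TDB liver, as 39.4% of all genes were, and Il1a and Il1b were lower in every one, as 36.3% were. On library totals 79.2% of called genes were higher in tumor. The higher genes were Il1rn (log2 difference 2.20, SE 0.30), Il6 (3.13, SE 0.63), Lif (6.64, SE 0.36), Osm (3.71, SE 0.44) and Csf1 (1.09, SE 0.36, adjusted p = 0.0321). The Csf1 call was lost in 5 of the 6 fits that each left out a library, liver TDB library 3 being the exception (lowest estimate 0.81). Il1a remained lower in tumor (-1.99, SE 0.23, adjusted p = 0.000278). Il1b, at 8.02 ± 1.12 CPM (SD, n = 3) in TDB tumor and 11.0 ± 1.11 CPM (SD, n = 3) in TDB liver, differed by -0.46 (SE 0.19, adjusted p = 0.0659) under TMM but by 0.68 on library totals (adjusted p = 0.0132), so its order after TDB depends on the scaling. Under TMM Il1b passed the test without liver TDB library 3 (-0.52, adjusted p = 0.0190). Csf3 was at least 5.26-fold and Il11 at least 8.47-fold higher in TDB tumor than in TDB liver against the same floor.

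Compared per length within a group, the order of the 10 genes also differed. In vehicle liver Il1a (6.73 ± 2.71 TPM), Il1b (5.18 ± 0.801 TPM) and Csf1 (4.49 ± 1.82 TPM; SD, n = 3 throughout) led, with spreads that overlap, and Il1rn followed at 1.30 ± 0.142 TPM. In TDB liver Csf1 (10.3 ± 7.52 TPM), Il1a (10.2 ± 3.70 TPM) and Il1b (9.28 ± 1.52 TPM) could not be ranked against each other. In vehicle tumor Csf1 led at 30.3 ± 6.03 TPM, ahead of Lif at 8.78 ± 2.85 TPM. Il1rn (4.61 ± 2.19 TPM), Il1a (4.03 ± 2.21 TPM) and Il1b (3.19 ± 2.03 TPM) came next within each other's spread. In TDB tumor Csf1 (70.6 ± 3.70 TPM) and Il1rn (38.9 ± 4.87 TPM) headed the order. Il1b (23.5 ± 3.37 TPM) and Lif (21.8 ± 5.28 TPM) were within their spread of each other, and Il1a (8.69 ± 1.37 TPM), Osm (4.79 ± 1.16 TPM) and Il6 (2.58 ± 0.757 TPM) lay below. Csf1 and Il1rn made up 40.6% and 22.4% of the summed TPM of the 10 genes in TDB tumor.

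The vehicle tumors differed among themselves in a common direction. Library 3 was the highest of the 3 vehicle tumors for all 9 cytokine genes with counts there, and library 2 was the lowest for 6 of them. Without library 3 the log2 fold changes of the 8 tested genes were greater, at 3.63 for Il1b and 2.38 for Osm. The summed fibroblast, stellate cell and pericyte markers were also highest in that library (1424 CPM, against 485 and 713 CPM), as were those of monocytes and macrophages (259 CPM, against 162 and 222 CPM), endothelium (119 CPM, against 73.5 and 95.4 CPM), dendritic cells (16.9 CPM, against 14.6 and 16.3 CPM), mammary epithelium (16464 CPM, against 13948 and 16195 CPM) and B cells (0.207 CPM, against 0.0922 and 0.182 CPM). The neutrophil list, mostly Ltf, was lowest there (315 CPM, against 1333 and 2914 CPM), as were the mast cell and basophil (0.118 CPM) and hepatocyte (0.0592 CPM) lists. T cell markers were highest in library 1 (2.43 CPM, against 2.22 CPM in library 3) and NK cell markers in library 2 (0.243 CPM, against 0.237 CPM in library 3). The part of these markers in the result was not tested.

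Most of the receptor genes for these cytokines rose in tumor. Of 13 receptor subunit genes, 9 were higher after TDB, 0 were lower and 4 were not called, with a median log2 fold change of 0.88. Of all tumor genes, 15.8% were called higher and 13.1% lower. The 9 include Il1rap, whose call depended on the scaling, as given below. The receptor subunit Csf2rb and its paralog Csf2rb2, also counted among the 13, were among the highest. Csf2rb2 (3.49, SE 0.26) rose from 0.819 to 1.98 CPM with vehicle to 13.6 to 15.5 CPM with TDB, and Csf2rb (3.01, SE 0.32), the shared beta chain, from 1.49 to 4.20 CPM to 20.2 to 22.2 CPM. These 2 genes are near-identical paralogs, so how reads were divided between them is uncertain. Csf3r, the receptor of G-CSF on neutrophils, rose by 2.27 (SE 0.31), Csf2ra, the GM-CSF binding chain, by 0.99 (SE 0.13) and Csf1r, the macrophage receptor for Csf1, by 1.09 (SE 0.12; 24.2 ± 4.10 to 48.6 ± 1.40 CPM, SD, n = 3).

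Of the interleukin-1 receptors, the decoy Il1r2 rose by 1.86 (SE 0.41) from a low level of 0.200 ± 0.110 to 0.699 ± 0.141 CPM (SD, n = 3), and the accessory chain Il1rap by 0.37 (SE 0.11). The edgeR call of Il1rap was lost under upper quartile scaling (0.30, adjusted p = 0.0734) and on library totals (0.24, adjusted p = 0.107), so it depends on the scaling. The signalling receptor Il1r1 stood at 8.26 ± 3.66 and 6.44 ± 1.55 CPM and was not called (-0.28, SE 0.32, adjusted p = 0.568). Among the gp130 receptors, Osmr rose by 0.88 (SE 0.12) and Lifr by 0.61 (SE 0.08). Values of Il6st (0.29, SE 0.10, adjusted p = 0.0544), Il6ra (0.49, SE 0.25, adjusted p = 0.191) and Il11ra1 (-0.23, SE 0.15, adjusted p = 0.289) did not pass. In liver 0 of 12 receptor genes were called by edgeR, and 2 had an unadjusted p under 0.05 (Csf2rb, 1.04, SE 0.27, and Il6st, 1.04, SE 0.39). Of all 13657 liver genes tested, 1105 had an unadjusted p under 0.05. The greatest liver value of Il6st, 497 CPM, was in TDB library 3, against 174 and 230 CPM in the other 2. The tumor effect exceeded the liver effect for Csf2rb (1.93, SE 0.42, adjusted p = 0.0317) and Csf2rb2 (2.44, SE 0.54, adjusted p = 0.0346) in the edgeR interaction test under TMM. Both calls were lost on library totals (1.72, adjusted p = 0.0679, and 2.22, adjusted p = 0.0717).

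Ligand and receptor levels were arranged differently in the 2 tissues. Osmr was at 2.45 ± 0.585 CPM in vehicle liver and 73.4 ± 13.2 CPM in vehicle tumor (log2 difference 4.90, SE 0.23, adjusted p = 1.48e-07), and Lifr was at 649 ± 71.6 CPM in liver and 31.3 ± 1.77 CPM in tumor (-4.38, SE 0.18, adjusted p = 5.08e-08; SD, n = 3 throughout). The tissue with more Lif transcripts therefore had fewer Lifr transcripts. Both directions held on library totals (6.23 for Osmr and -3.04 for Lifr). Il1r1 was lower in vehicle tumor than in vehicle liver (-2.16, SE 0.28), and by -0.83 on library totals (adjusted p = 0.0179). Csf1r (-1.65, SE 0.21) and Il6st (-1.18, SE 0.17) were lower under TMM, median-of-ratios and upper quartile scaling. On library totals Csf1r was at -0.32 (adjusted p = 0.211) and Il6st turned to 0.16 (adjusted p = 0.419), so their order between tissues depends on the scaling.

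**Figure D4:**
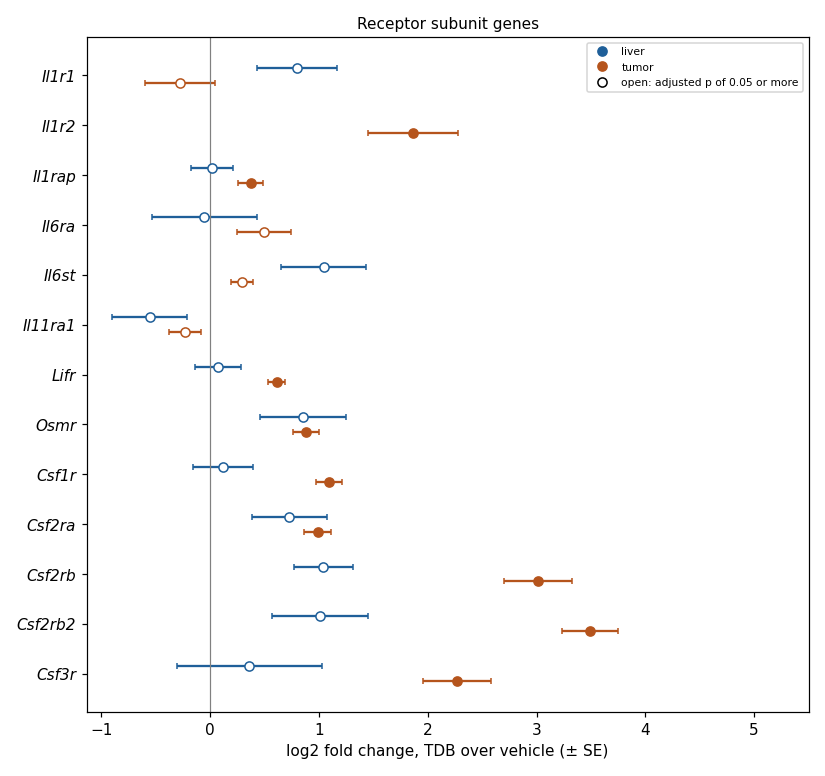
Log2 fold change of TDB over vehicle (± SE, linear axis) for 13 receptor subunit genes in liver (blue, 12 genes tested) and tumor (orange); filled points have an adjusted p under 0.05. The tumor points of Csf2rb2 (3.49), Csf2rb (3.01), Csf3r (2.27) and Il1r2 (1.86) lie farthest to the right, and the liver points are open.

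Of 13 genes listed for processing interleukin-1 or carrying its signal, 9 were higher in tumor, 0 lower and 4 not called (median log2 fold change 0.76), beside 15.8% of all genes higher. Gsdmd, whose product forms the pore for interleukin-1 release, rose by 2.61 (SE 0.20), from 1.41 ± 0.409 to 8.12 ± 0.550 CPM (SD, n = 3). The inflammasome sensor Nlrp3 rose by 2.12 (SE 0.24), its adaptor Pycard by 1.62 (SE 0.10) and the receptor kinase Irak2 by 1.42 (SE 0.12). In liver edgeR called 0 of the 13, with 6 at an unadjusted p under 0.05, beside 1105 of all 13657 liver genes. Casp1, which cleaves interleukin-1 beta, had the lowest liver p (1.36, SE 0.26, adjusted p = 0.0912).

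Of 14 genes listed for signalling and feedback of gp130 and colony-stimulating factor receptors, 8 were higher in tumor and 0 lower (median 0.55). Of all tumor genes, 15.8% and 13.1% were called higher and lower. Which cytokine these changes followed was not tested. The feedback inhibitor Socs1 went from 0.230 ± 0.196 to 29.5 ± 7.67 CPM (SD, n = 3; log2 fold change 7.06, SE 0.41) and Socs3 from 7.97 ± 3.94 to 43.8 ± 6.88 CPM (2.54, SE 0.35). Pim1, a STAT target kinase gene, rose by 1.94 (SE 0.21) and the kinase gene Jak2 by 1.31 (SE 0.08). In liver 1 of the 14 was called, Socs1, which rose from 0.643 ± 0.201 to 3.86 ± 1.14 CPM (2.62, SE 0.40, adjusted p = 0.0430).

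Related cytokines moved in both directions in tumor. Of 19 listed, 11 were tested, of which 4 rose and 3 fell (median 0.29), beside 15.8% and 13.1% of all tumor genes. Il18bp, the secreted inhibitor of interleukin-18, rose by 3.78 (SE 0.12) in tumor, and it was the 1 related gene called in liver, where it rose by 2.37 (SE 0.31, adjusted p = 0.0340). Il27 went from 2 to 81 counts over the 3 tumors, a count too low with vehicle for a firm fold change. The growth factor gene Flt3l rose by 1.75 (SE 0.24), and Kitl, the gene of stem cell factor, fell by 1.04 on the log2 scale, from 51.6 ± 5.82 to 23.7 ± 4.01 CPM (SD, n = 3).

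Acute-phase genes are textbook targets of interleukin-6 and interleukin-1 in hepatocytes. In liver edgeR called 0 of the 21 tested, with 9 at an unadjusted p under 0.05, beside 1105 of all 13657 liver genes. The median log2 fold change of the 21 was 0.62. Steap4 had the lowest p, at 113 ± 18.2 CPM with vehicle and 441 ± 192 CPM with TDB (2.01, SE 0.38, adjusted p = 0.0908). Saa1 varied between 64.8 and 5365 CPM among vehicle livers alone. In tumor 8 of 14 tested were higher and 0 lower (median 1.13), beside 15.8% and 13.1% of all tumor genes. Orm1 rose by 5.02 (SE 0.70) from 11 to 406 counts, Saa2 by 3.19 (SE 0.37), Saa1 by 3.18 (SE 0.42) and Saa3 by 3.05 (SE 0.77). Saa1 and Saa2 are near-identical in sequence, so the split between these is uncertain.

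Other genes of cytokine release rose in tumor in 7 of 9 cases tested (median 3.26), beside 15.8% of all tumor genes called higher. Cxcl10 rose from 0.893 ± 0.632 to 76.5 ± 3.44 CPM (SD, n = 3; 6.49, SE 0.41) and Ccl4 by 3.40 (SE 0.47). Ifng held 0 counts in the vehicle tumors and 542 in the TDB tumors, and Il10 held 1 and 52. Ifng, Il10, Il27 and Orm1 reached the level of the count filter in TDB tumors only, so their place among the genes tested was set by that group. In liver Cxcl10 was the 1 gene called of 4 tested (3.80, SE 0.35, adjusted p = 0.00448).

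Markers of several immune cell types were higher in TDB tumors, whereas no endothelial, fibroblast or mammary epithelial marker was called higher. Beside 15.8% of all tumor genes called higher, monocyte and macrophage markers were higher in 7 of 10 cases, and their summed level went from 162 to 259 CPM with vehicle to 358 to 444 CPM with TDB. The monocyte genes Ccr2 (2.96, SE 0.18) and Itgam (2.17, SE 0.32) were among them, and Ly6c2 held 1 count with vehicle and 441 counts with TDB. T cell markers were higher in 7 of 8 cases (sums of 1.21 to 2.43 CPM against 7.46 to 11.7 CPM, Cd3e being at 0 in the vehicle tumors), NK cell markers in 3 of 3 (0.123 to 0.243 against 5.04 to 12.7 CPM) and dendritic cell markers in 3 of 4 (14.6 to 16.9 against 38.0 to 38.7 CPM, Clec9a being at 0 with vehicle). The 7 T cell genes, the 3 NK cell genes and 2 of the 3 dendritic cell genes reached the level of the count filter in TDB tumors only. So did 1 of the 7 monocyte and macrophage genes. These genes could only be tested because they were high with TDB, so their counts of called genes support nothing on their own. The part of the cell type markers in the cytokine results was not tested.

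Of 4 neutrophil markers tested, S100a8 (2.95, SE 0.47; mean 3.34 CPM against 24.4 CPM) and Cxcr2 rose. The neutrophil sum of 315 to 2914 CPM with vehicle and 1384 to 4258 CPM with TDB was nearly all Ltf, also a milk protein gene of mammary epithelium, and the defining neutrophil gene Ly6g was at 0 in vehicle tumors and averaged 0.0229 CPM in TDB tumors. Kupffer cell markers were nearly absent from tumor, with Clec4f at 0 in the 6 libraries and a sum of at most 2.47 CPM, of which Timd4 made up most. Beside 13.1% of all tumor genes called lower, endothelial markers were lower in 2 of 5 cases (73.5 to 119 CPM against 59.8 to 92.2 CPM), fibroblast, stellate cell and pericyte markers in 1 of 7 (485 to 1424 against 417 to 966 CPM) and mammary epithelial markers in 2 of 6 (13948 to 16464 against 15482 to 16065 CPM). B cell markers (at most 1.07 CPM in sum) and mast cell and basophil markers (at most 0.744 CPM) were too low to test in tumor.

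In liver the monocyte and macrophage sum was 607 to 901 CPM with vehicle and 671 to 1019 CPM with TDB. Of these 10 genes, edgeR called 0, and 4 were at an unadjusted p under 0.05. Of all 13657 liver genes tested, 1105 were at an unadjusted p under 0.05. The Kupffer cell sum was 684 to 1044 CPM and 713 to 933 CPM, with 1 of 5 genes called (Marco, higher) and 3 at an unadjusted p under 0.05. The uncalled Kupffer cell genes went both ways, with Timd4 (0.87) and Cd5l (0.45) above 0 and Vsig4 (-0.91) and Clec4f (-0.75) below 0. T cell markers went from 14.4 to 16.7 CPM to 29.7 to 36.7 CPM, with Cd8a called higher. Dendritic cell markers were at 7.99 to 11.5 CPM with vehicle and 12.5 to 19.1 CPM with TDB, with 0 of 3 called and 2 at an unadjusted p under 0.05, and mammary epithelial markers were at 321 to 466 CPM and 476 to 831 CPM, with 0 of 6 called and 1 at an unadjusted p under 0.05. B cell markers (9.41 to 10.3 CPM and 6.10 to 9.21 CPM) and fibroblast, stellate cell and pericyte markers (497 to 506 CPM and 384 to 487 CPM) had 0 called and 0 at an unadjusted p under 0.05. The hepatocyte sum was 224684 to 268562 CPM with vehicle and 146113 to 185641 CPM with TDB, groups that do not overlap, with 0 of 5 genes called and 2 at an unadjusted p under 0.05. The part of these markers in the liver values was not tested.

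**Figure D5:**
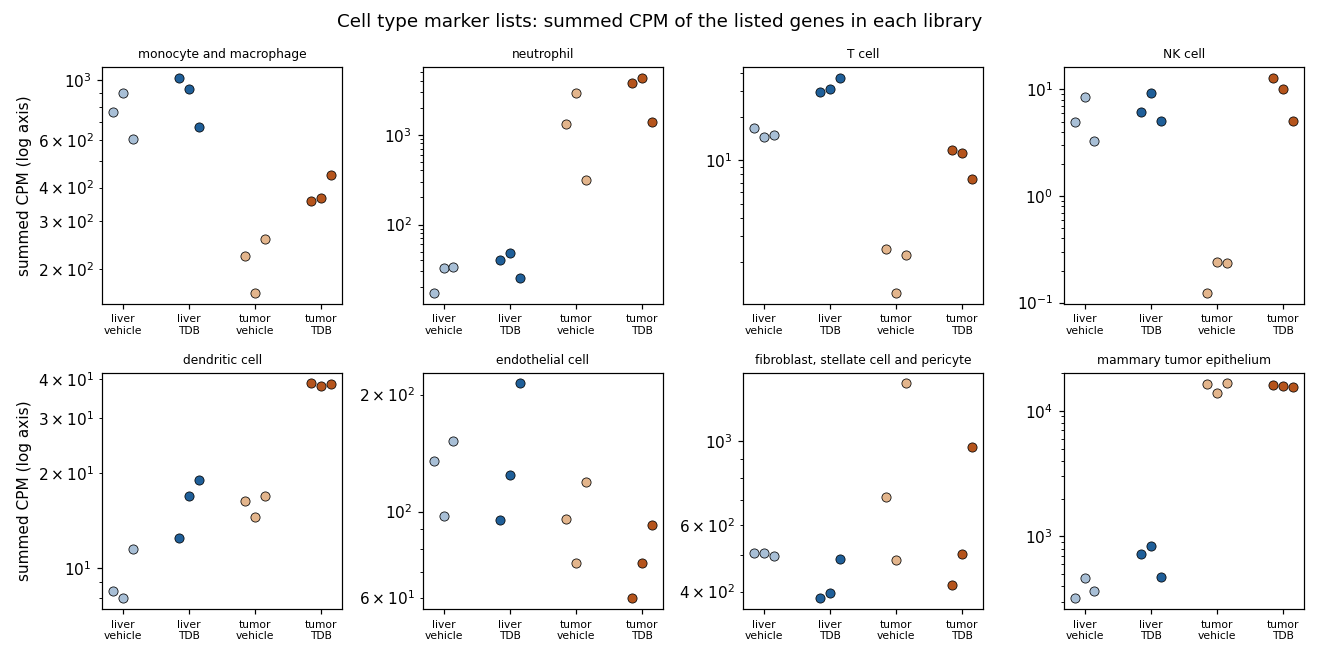
Summed CPM of 8 cell type marker lists in each library (log axes, scaled separately for each list; points are libraries, 3 per group). In tumor, TDB libraries lie above vehicle libraries for monocyte and macrophage, T cell, NK cell and dendritic cell lists, while the groups overlap for neutrophil, endothelial, fibroblast and epithelial lists.

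For the 3 cytokine genes with the most counts, the genes most alike over the 12 libraries were sought among 14125 genes with a mean of at least 1 CPM, by Pearson's r of log2(CPM + 0.5). Csf1 was most like Lrrc8c (r = 0.989), a subunit gene of volume-regulated anion channels, and Jak2 (r = 0.980). Jak2 averaged 19.2 and 30.6 CPM in vehicle and TDB liver and 28.0 and 65.5 CPM in vehicle and TDB tumor, and Csf1 followed the same order (17.2, 31.4, 27.5 and 66.8 CPM), in which TDB liver and vehicle tumor lie within their spread for both genes. Il1rn was most like Fbxw17 (r = 0.965) and the chemokine gene Ccl4 (r = 0.963), and Lif was most like Phactr1 (r = 0.996) and Gm37277 (r = 0.995). These values describe 12 libraries that fall into 4 groups and share their scaling, and those of Lif, nearly absent from liver, include the contrast between tissues.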

How the data were processed

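RNA of 12 libraries (4 groups of 3, by title) was analysed. The authors deposited raw counts for 52636 Ensembl genes. They also deposited FPKM values, whose gene factor lay within 1% of the genomic span for 84.1% of 7150 genes, so FPKM served only as an alternative. GSNAP, limma and GRCm38 are named without role per the submitters' processing notes. Counter and strand setting: not given in the sources used here. Symbols came from GENCODE M21 (52489 identifiers matched), promoters from RefSeq.

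Tests used edgeR 4.0.16 under R 4.3.3: TMM scaling, filterByExpr (the CPM that 10 counts give in a library of median size, reached in at least 3 libraries, and 15 counts in total), the quasi-likelihood test with robust dispersion, and Benjamini-Hochberg adjustment at 0.05. They ran in the 6 libraries of a comparison or, for the interaction, in all 12. Only the comparisons within a tissue were checked on simulated counts, with changes placed in genes with many counts. Scarce genes, the interaction and the tests between tissues were not covered. CPM use TMM factors of the 12 libraries; a comparison's own factors raise TDB over vehicle by 0.04 (liver) and 0.08 (tumor) log2 units. TPM, used to compare genes within a library, divide counts by merged exonic length. Alternatives used DESeq2 1.42.0 and limma 3.58.1. Depth limits precision, and intervals and floors cover counting error only. No 2 libraries of a group agreed within sampling noise.

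The members and lists were chosen with earlier results of these data known. Named were the 10 cytokine and 13 receptor genes, and of each other list and tissue up to 4 called genes with the largest change, or the gene with the lowest p where none was called; Saa1 in liver, counts of related genes and markers were named after their values were seen.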

Additional observations from a re-analysis of the deposited data

Results flagged for a closer look

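Il1b and Il1rn were singled out because their response to TDB differed between tissues in the interaction test, by 2.33 log2 units for Il1b and 2.47 for Il1rn. For Il1b, the 3 TDB tumors were at 6.73 to 8.78 CPM and the vehicle tumors at 0.455 to 1.78 CPM, while the liver ranges were 10.0 to 12.2 and 6.87 to 7.87 CPM. For Il1rn, the corresponding ranges were 34.7 to 45.0 and 1.97 to 5.92 CPM in tumor, and 6.03 to 12.1 and 5.16 to 5.40 CPM in liver.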

How the results depend on the processing

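Of 991 values recomputed under alternatives, 878 kept their direction and their side of the threshold (or, for counts, stayed within 1.5 times). The liver count of 70 genes higher and 3 lower moved to 292 and 60 with DESeq2, 133 and 12 with no filter, 282 and 41 when fitted over 12 libraries, 26 genes higher with limma on log2(FPKM + 1) and 26 on log2(FPKM + 0.1), 32 with a mean FPKM of at least 0.1, 5 lower under upper quartile scaling and 1 lower on library totals, an alternative chosen after seeing the data. Leaving out 1 library gave 14 to 151 higher and 0 to 12 lower. The tumor counts of 2437 higher and 2019 lower were 1068 and 627 over 12 libraries, 1532 higher with the FPKM minimum and 3996 lower on library totals, and 1797 to 2717 and 1145 to 2143 without 1 library. The 7 cytokine genes higher in tumor became 4 without tumor vehicle library 1 (range 4 to 7). The interaction counts of 303 and 109 were 582 and 315 with DESeq2, 523 and 450 with FPKM + 1, 490 and 252 with FPKM + 0.1, 296 lower with the FPKM minimum, 190 lower on library totals, and 196 to 525 and 45 to 177 without 1 library, with 0 to 2 cytokine genes. Between vehicle tissues library totals gave 10494 higher and 2772 lower, with 5 cytokine genes higher under no filter, 5 under a total of at least 10 counts, 4 with FPKM + 0.1 and 1 to 2 without 1 library. Between TDB tissues library totals gave 9706 and 2556, 8 cytokine genes were higher with either FPKM offset, 2 were lower with DESeq2, and 1 to 2 were lower without 1 library. Directions reversed for Il1rn between vehicle tissues (1.06 on library totals, -0.54 to 0.0749 without 1 library, the latter without tumor vehicle 2), for Il1b between TDB tissues on library totals (0.68) and, from 0 to 8 liver counts, for interactions of Il6 (-1.95 to 2.49 without 1 library) and Osm (-3.23 to 0.99), the reversals being without liver vehicle library 1, and of Lif with FPKM (0.56 with an offset of 1, with or without the minimum, and 1.10 with 0.1). The cause was not tested. With the replicate number as a block, liver counts were 291 and 59, the interaction had 42 genes lower, and no cytokine gene's call changed. Same-numbered liver and tumor libraries of a treatment correlated by -0.04 to 0.10, and differently numbered ones by -0.16 to 0.15. No label ties them either, so the numbers were not taken as pairs. Depth limits Csf2, Csf3, Il11 and, in liver, Il6, Lif and Osm.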
